A study of Mus musculus with 4 samples.

Results

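Atrium-enriched genes were followed through the mouse heart as a set of 7 named genes (Myl4, Myl7, Sln, Mybphl, Bmp10, Dkk3 and Stard10) among the 23238 gene symbols in the heart data. They were chosen by name, as genes whose transcripts are known to be more abundant in the atria than in the ventricles, and each had a single row in every library. Earlier results of these data were known when the set was chosen. The shares of members called, set below beside those of all genes, are therefore a description and not a test. The study crossed treadmill exercise with cancer in male CDF1 mice, with 10 mice assigned to each group. The hearts came from healthy mice without exercise [E(-)T(-)], healthy mice given high-intensity aerobic exercise [E(+)T(-)], cancer-bearing mice without exercise [E(-)T(+)] and cancer-bearing mice given the same exercise [E(+)T(+)]. Cancer was produced by injecting cells of the mouse colorectal carcinoma line CT26 into a tail vein, so tumor cells were seeded through the blood. The labels give an age of postnatal day 28, which the methods give, as 4 weeks, for the mice at purchase. Each group was represented by 1 heart library, so no difference below has a replicate check and no p-value is given. Whether a heart library held 1 heart or a pool, and which chambers were dissected, is not given in the sources used here.

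The atria and ventricles of the heart carry related but distinct sets of contractile proteins. Myl7 and Myl4 are the regulatory and essential light chains of atrial myosin, and Myl2 and Myl3 are their ventricular counterparts. Sln encodes sarcolipin, a short membrane peptide that restrains the calcium pump of the sarcoplasmic reticulum and is the atrial relative of phospholamban (Pln). Mybphl is a myosin-binding protein of the atria and conduction system, related to cardiac myosin-binding protein C (Mybpc3). Bmp10 is a secreted growth factor made in the adult mouse mainly by right atrial muscle. Dkk3 is a secreted glycoprotein of the Dickkopf family, and Stard10 is a lipid transfer protein with a START domain. In RNA from a whole tissue, more cells of a type and more RNA per cell cannot be told apart, and neither can the amount of atrium taken into the sample.

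The libraries were made with the QuantSeq method, which reads mainly the 3′ end of each transcript. Deposited values were log2(normalized read count + 1), and whole read numbers were recovered from them (6595445 to 11545947 reads a library). The E(+)T(+) library stood apart from the rest, with 37.3% of its reads assigned to globin genes against 7.86% to 8.76% in the other 3. Every comparison with that library rests on it alone, while the comparison of E(+)T(-) with E(-)T(-) does not use it. The labelled tissue was clear in all 4 libraries, since each of 13 contractile and calcium-handling genes used by cardiomyocytes of both chambers had at least 3382 reads in every library.

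All 7 genes lie on autosomes of the mm10 build (GRCm38). Myl4 is at chr11:104550663-104595753 on the forward strand and Myl7 at chr11:5896637-5898782 on the reverse strand. Sln is at chr9:53850164-53854560, Mybphl at chr3:108364911-108380057 and Bmp10 at chr6:87428994-87437677, all on the forward strand. Dkk3 is at chr7:112116017-112159057 on the reverse strand and Stard10 at chr7:101317086-101346626 on the forward strand. No 31-base word from the last 400 bases of their protein-coding transcripts occurred in a transcript of another gene, so reads at these ends could be assigned to 1 gene. The 3′ end of Mybphl is overlapped over 781 bases by Gm12522, a noncoding transcript on the opposite strand. Whether counting used the strand is not given in the sources used here, and reads of Mybphl and Gm12522 cannot be told apart if it did not.

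Sln is so small that its whole coding sequence can be shown. It has 96 bases and 32 codons with the stop, here from the GRCm38 annotation with the start and stop codons in capitals.
Sln coding sequence: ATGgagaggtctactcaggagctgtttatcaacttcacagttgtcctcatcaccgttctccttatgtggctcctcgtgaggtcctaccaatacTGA
RefSeq promoter entries (GRCm38.p6) were found for 5 of the 7 genes, Myl4, Myl7, Mybphl, Bmp10 and Stard10. The 250 bases before the start are shown for 3 muscle genes whose deposited values were highest in the same library. Matches to a GATA motif (AGATAA or TGATAA, either strand) and to a CArG box are in capitals.
Myl7 promoter (chr11:5898783-5899032, reverse strand): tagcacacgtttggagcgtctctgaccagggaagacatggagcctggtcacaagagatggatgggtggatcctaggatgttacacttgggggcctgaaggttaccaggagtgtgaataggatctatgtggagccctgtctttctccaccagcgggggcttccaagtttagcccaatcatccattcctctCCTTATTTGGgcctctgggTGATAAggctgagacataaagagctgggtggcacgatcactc
Mybphl promoter (chr3:108364661-108364910, forward strand): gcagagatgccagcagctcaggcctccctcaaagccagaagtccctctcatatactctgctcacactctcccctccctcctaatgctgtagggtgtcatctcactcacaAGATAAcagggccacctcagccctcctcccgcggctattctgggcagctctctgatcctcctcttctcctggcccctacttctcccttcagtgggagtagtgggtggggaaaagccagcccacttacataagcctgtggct
Myl4 promoter (chr11:104550413-104550662, forward strand): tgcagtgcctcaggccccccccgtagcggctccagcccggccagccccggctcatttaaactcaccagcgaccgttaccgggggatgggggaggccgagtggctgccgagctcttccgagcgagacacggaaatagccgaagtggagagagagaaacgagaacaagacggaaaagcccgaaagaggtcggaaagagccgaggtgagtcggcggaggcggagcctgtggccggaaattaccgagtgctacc
The Myl7 window held a CArG box at bases -61 to -52 and a GATA motif at bases -42 to -37 from the start, and the Mybphl window a GATA motif at bases -141 to -136. A GATA motif was present in 4 of the 5 windows (Myl7, Mybphl, Bmp10 and Stard10) against 16.6% of 32851 mouse promoters of that length. A CArG box, the site of serum response factor, was present in the Myl7 window and in 1.47% of all promoters. The Myl4 window, which precedes the most upstream of 8 annotated starts, held neither. The ventricular light chain genes carried such motifs too. A Myl2 window held a GATA motif at bases -211 to -206, and a Myl3 window a CArG box at bases -85 to -76. Of 4 other motifs, none was present in the 5 windows. They were a T-box motif (AGGTGTGA, 1.12% of all promoters), an Nkx motif (CACTTNA, 10.1%), a COUP-TF motif (AGGTCA, 14.0%) and MEF2 (2.92%), each searched on both strands. A match of letters is a description of the sequence and does not show that a factor binds there.

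In the deposited values the muscle genes of the atrium followed a common order, low in both hearts without exercise, higher in E(+)T(-) and highest in E(+)T(+). Values are given throughout for E(-)T(-), E(+)T(-), E(-)T(+) and E(+)T(+), in that order. The log2 level of Myl4 was 9.52, 10.51, 9.16 and 11.49, from 641, 1612, 650 and 2627 reads. Myl7 had log2 levels of 9.54, 10.74, 9.43 and 11.15, from 650, 1896, 779 and 2079 reads. Sln had log2 levels of 8.96, 10.31, 9.23 and 12.26, from 434, 1402, 680 and 4479 reads. In all 3 genes both exercised hearts therefore lay above both hearts without exercise, and Sln spanned the widest range of the 7 genes, 3.30 on the log2 scale. Mybphl was the least read of the muscle genes, at log2 levels of 6.24, 6.93, 5.99 and 7.45 from 65, 134, 71 and 159 reads. It kept the order of Myl4 and Myl7, with E(-)T(+) lowest and E(+)T(+) highest. Gm12522, its opposite-strand neighbour, had 31, 101, 35 and 105 reads and the same order.

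The other members did not share that order. Dkk3 was lowest in E(-)T(-), at log2 levels of 7.14, 8.37, 8.58 and 9.16 from 122, 365, 434 and 523 reads. Stard10 had log2 levels of 7.79, 7.92, 8.38 and 9.64, from 192, 267, 378 and 730 reads. For both genes E(-)T(+) lay above E(+)T(-), unlike the muscle genes. Bmp10 was close to undetected, with 6, 0, 0 and 1 reads and log2 levels of 2.92, 0.00, 0.00 and 1.09. A count of 0 allows up to 3 reads, so the 3 low libraries cannot be ordered.

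**Figure D1:**
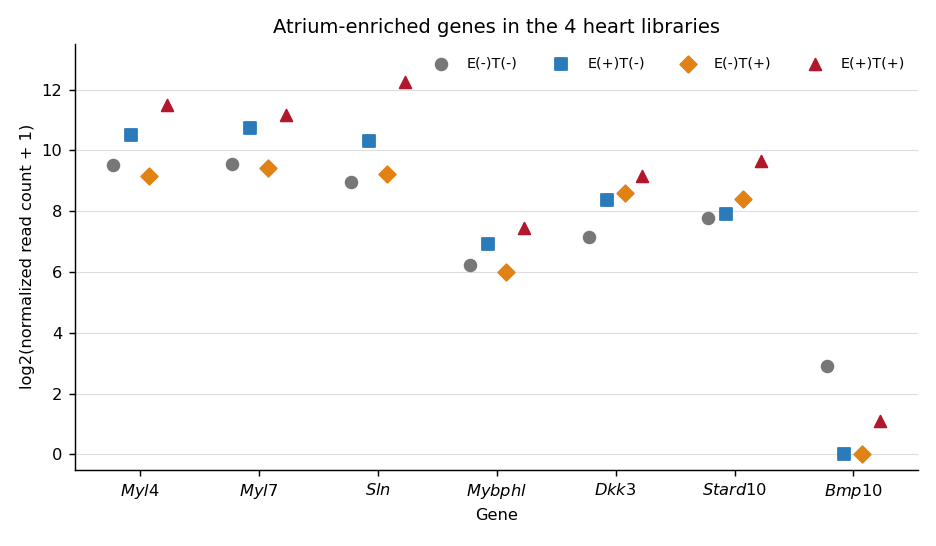
Level of each of the 7 genes, as log2(normalized read count + 1) on the vertical axis, in the 4 heart libraries, 1 point per library with no error bar because each group had 1 library. Myl4, Myl7, Sln and Mybphl sit highest in E(+)T(+) and next in E(+)T(-), Dkk3 and Stard10 are next highest in E(-)T(+), and Bmp10 lies near 0 in all but E(-)T(-).

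The first comparison asked what exercise did in healthy mice, E(+)T(-) against E(-)T(-). A gene was called when its values differed at least 2-fold and 1 of the libraries compared had a normalized read count of 4 or more. Both limits are the study's, but its text does not say how many libraries must reach the count. Myl7, Sln and Dkk3 were called higher, Bmp10 was called lower, and Myl4, Mybphl and Stard10 were not called. These 4 calls among 7 genes compare with 12.3% of all 13930 genes called in either direction, 5.88% higher and 6.40% lower. Where both libraries had to reach the count, 6.49% of 12782 genes were called, as were Myl7, Sln and Dkk3 but not Bmp10. Among the 7072 genes with a mean normalized read count of at least 100, 1.75% were called. The median log2 fold change of the 7 genes was 0.99, against 0.00 over all genes tested, and the same with Bmp10 set at the floor given below. Sln was higher by 1.35 on the log2 scale, with a 95% interval of 1.19 to 1.51 from counting error alone. Myl7 was higher by 1.20 (1.07 to 1.33) and Dkk3 by 1.23 (0.94 to 1.55). Myl4 fell just short of the threshold, at 0.99 (0.86 to 1.12) or 1.98-fold, and its interval reached across it. Mybphl had a log2 fold change of 0.69 (0.26 to 1.15) and Stard10 of 0.13 (-0.14 to 0.41), whose interval includes 0. Bmp10, with 6 reads against 0, was 2.53-fold lower when 0 reads were set at the floor of 3 reads, and the counting interval of its log2 fold change reached up to -0.58. Intervals here and below were computed by the Clopper-Pearson method and do not cover differences between mice or copies made by PCR.

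Exercise was compared again in cancer-bearing mice, E(+)T(+) against E(-)T(+). Myl4, Myl7, Sln, Mybphl and Stard10 were called higher, 5 of the 6 genes above the minimum count and none lower. Over all 14357 genes 9.39% were called higher, 10.0% lower and 19.4% in either direction, or 12.6% of 12952 genes where both libraries had to reach the count. The median log2 fold change of the 6 genes was 1.59 against -0.01 over all genes. Sln had the largest difference of the set, 3.03 on the log2 scale (2.91 to 3.15). It was followed by Myl4 at 2.32 (2.20 to 2.45) and Myl7 at 1.72 (1.61 to 1.85), and these 3 intervals did not overlap. Mybphl was higher by 1.46 (1.06 to 1.90) and Stard10 by 1.26 (1.08 to 1.44). Dkk3 was not called, at 0.58 (0.39 to 0.77), and its sign turned to -0.01 when reads were scaled to the library total. That scaling placed the globin reads in the denominator and moved the median of all genes by -0.60. Under it Mybphl (0.88) and Stard10 (0.67) lay below the threshold, although above the shifted median, while Myl4, Myl7 and Sln were still called. Bmp10 had 1 read against 0, both within the floor, and no fold is read from it.

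Read side by side, the exercise comparisons gave higher values of Myl4, Myl7, Sln and Mybphl in both healthy and cancer-bearing mice. For Sln the log2 fold change was 1.35 in healthy and 3.03 in cancer-bearing mice, and for Myl4 it was 0.99 and 2.32. For Stard10 the values were 0.13 and 1.26, while for Dkk3 the larger value was in healthy mice, 1.23 against 0.58. The pairs of intervals did not overlap for any of these 4 genes, but with 1 library a group the difference between the effects could not be tested.

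**Figure D2:**
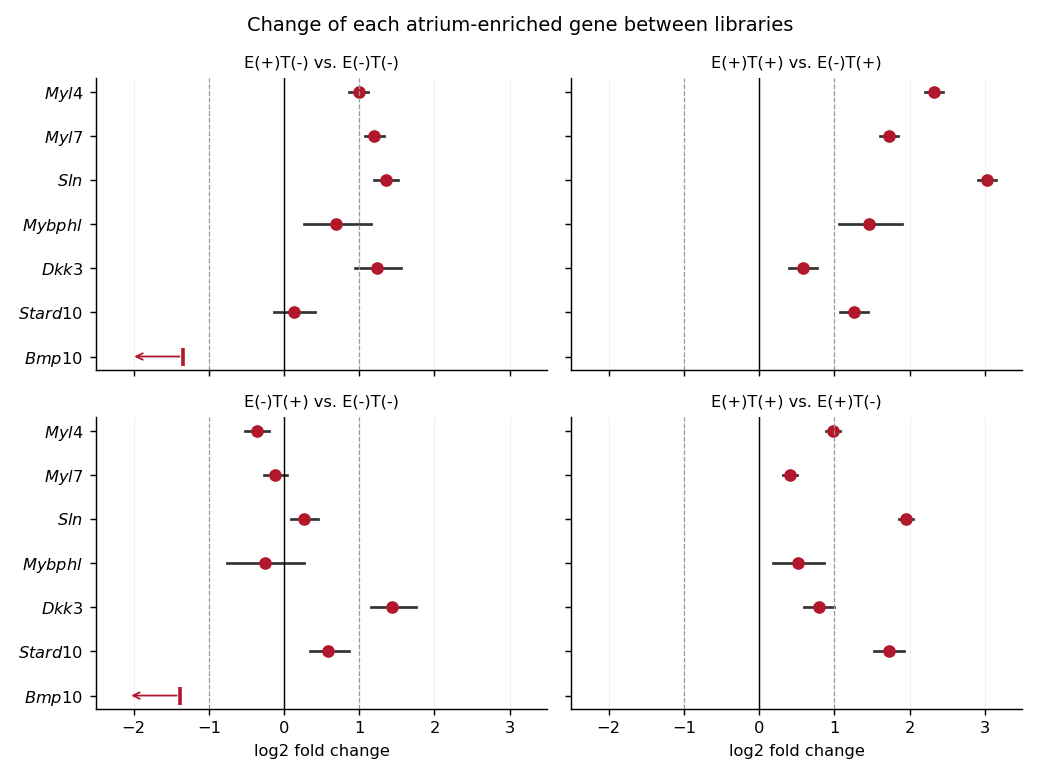
log2 fold change of each gene in the 4 comparisons, with each panel titled by its libraries (first against second), points for the difference of deposited log2 values and bars for the 95% Clopper-Pearson interval of counting error. Dashed lines mark a 2-fold difference, an arrow for Bmp10 starts at the value given by the floor of 3 reads, and Bmp10 is not drawn where neither library exceeded the floor. In the panel of exercise in cancer-bearing mice 5 genes lie to the right of the dashed line, and without exercise only Dkk3 does so among the genes drawn with an interval.

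The effect of cancer was compared without exercise, E(-)T(+) against E(-)T(-). Of the 7 genes Dkk3 was called higher and Bmp10 lower, while 27.6% of all 14311 genes were called, 14.6% higher and 13.1% lower. The share of members called was thus close to the background of this comparison. Their median log2 fold change was -0.12 against -0.01 over all genes. Dkk3 was higher by 1.44 (1.16 to 1.75), the largest of its differences in the 4 comparisons. Myl4 had a log2 fold change of -0.36 (-0.52 to -0.20), Myl7 of -0.12 (-0.27 to 0.04) and Mybphl of -0.25 (-0.76 to 0.26). Sln had a log2 fold change of 0.27 (0.09 to 0.45) and Stard10 of 0.59 (0.34 to 0.86). No muscle gene of the atrium was called between the hearts of mice without exercise. Bmp10, with 6 reads against 0, was 2.60-fold lower at the floor of 3 reads, with a counting interval that reached up to -0.61 on the log2 scale.

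Among exercised mice, E(+)T(+) against E(+)T(-), Sln and Stard10 were called higher, 2 of the 6 genes above the minimum, where 12.0% of all 14282 genes were called higher, 11.1% lower and 23.0% in either direction. Sln was higher by 1.95 (1.86 to 2.04) and Stard10 by 1.72 (1.52 to 1.93). Myl4 had a log2 fold change of 0.98 (0.89 to 1.07), and its interval reached across the threshold. Dkk3 had a log2 fold change of 0.79 (0.60 to 0.99), Mybphl of 0.52 (0.18 to 0.86) and Myl7 of 0.41 (0.32 to 0.50). The median of the 6 genes was 0.88 against -0.01 over all genes. With scaling to the library total, under which the median of all genes moved by -0.74, the log2 fold changes of Myl7 and Mybphl turned to -0.31 and -0.20.

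A ratio of 2 genes in the same library does not depend on scaling between libraries. Each atrial gene was therefore set against a related gene that is abundant in the ventricle or in all cardiomyocytes, and the ratios were compared across libraries only. Myl7 had 12.9 reads per 1000 Myl2 reads (95% interval 12.0 to 14.0) in E(-)T(-), followed by 28.6 (27.3 to 29.9), 15.8 (14.7 to 16.9) and 46.2 (44.2 to 48.3) for the other libraries in the order above. Exercise was thus accompanied by a ratio 2.21-fold higher in healthy and 2.93-fold higher in cancer-bearing mice. Myl4 per 1000 Myl3 reads was 7.13 (6.59 to 7.71), 13.6 (13.0 to 14.3), 5.74 (5.31 to 6.20) and 28.0 (27.0 to 29.1) in the same order. Sln per 1000 Pln reads was 11.3 (10.3 to 12.5), 28.7 (27.2 to 30.2), 14.3 (13.2 to 15.4) and 98.4 (95.4 to 101). Mybphl per 1000 Mybpc3 reads was 2.70 (2.08 to 3.44), 5.21 (4.36 to 6.17), 3.67 (2.87 to 4.64) and 10.0 (8.50 to 11.7). For all 4 pairs the interval of each exercised heart lay above that of its partner without exercise. Between the hearts without exercise the direction differed, with Myl7 per Myl2 1.22-fold higher with cancer and Myl4 per Myl3 0.805-fold. Log2 fold changes over the 4 comparisons were -0.40 to 0.18 for Myl2, -0.06 to 0.05 for Myl3 and -0.07 to 0.25 for Pln. Mybpc3 moved more, from -0.70 with cancer without exercise to 0.03. Without exercise Mybphl itself was not higher with cancer, at -0.25 (-0.76 to 0.26), so its 1.36-fold higher ratio lay in Mybpc3. Myl7 was likewise at -0.12 (-0.27 to 0.04) and Myl2 at -0.40, so the higher Myl7 ratio lay in Myl2. With exercise the deposited value of Mybphl was higher with cancer by 0.52 and Mybpc3 was lower, so part of that difference in the ratio lay in the partner. How large a part depends on scaling, since scaling to the library total turned the 0.52 of Mybphl to -0.20.

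**Figure D3:**
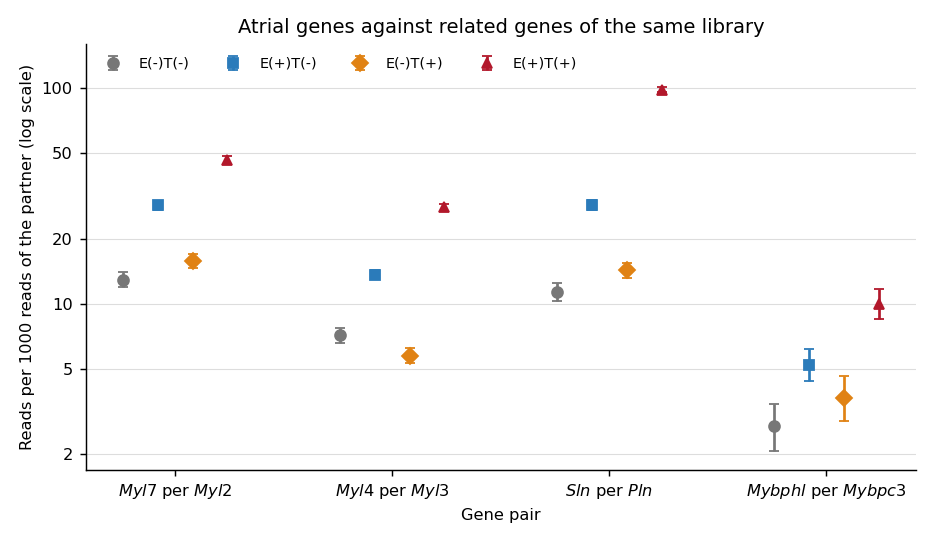
Reads of an atrial gene per 1000 reads of a related gene of the same library, on a log scale, for 4 gene pairs and 4 libraries, with bars for the 95% Clopper-Pearson interval of counting error. For each pair the E(+)T(+) and E(+)T(-) points lie above both libraries without exercise, from 98.4 Sln reads per 1000 Pln reads at the top to 2.70 Mybphl reads per 1000 Mybpc3 reads at the bottom.

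The genes did not move as a block within a library. Per 1000 Myl7 reads, Mybphl had 100 reads (76.3 to 129), 70.7 (58.9 to 84.2), 91.1 (70.4 to 116) and 76.5 (64.7 to 89.9), and all these intervals overlapped. Sln per 1000 Myl7 reads was 668 (590 to 755), 739 (690 to 793), 873 (786 to 969) and 2154 (2045 to 2271). Sln was thus raised over Myl7 in E(+)T(+), 2.91-fold above E(+)T(-). Myl4 per 1000 Myl7 reads was 986, 850, 834 and 1264, with the interval of E(+)T(+) (1192 to 1339) above the other 3. Dkk3 stood out in the other cancer heart, with 188, 193, 557 and 252 reads per 1000 Myl7 reads, highest in E(-)T(+) (494 to 627). Stard10 had 295, 141, 485 and 351 reads per 1000 Myl7 reads and was likewise highest in E(-)T(+) (428 to 549). Of the 5 ratios to Myl7, that of Mybphl alone had intervals that overlapped among all 4 libraries. Overlap does not show that its ratios were equal, and that of E(+)T(-) was 0.707-fold that of E(-)T(-).

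A further 16 genes known for atrial expression did not give the same picture as the 7. In healthy mice 1 of 14 tested was called higher with exercise and none lower, with a median log2 fold change of 0.00. In cancer-bearing mice 5 of 15 were called higher and 2 lower with exercise, with a median of 0.76 that fell to 0.17 under scaling to the library total. Without exercise 1 was called higher and 2 lower with cancer, and with exercise 2 and 2. Beside these counts and those of the lists below stand the shares of all genes called in either direction. They were 12.3% and 19.4% with exercise in healthy and cancer-bearing mice, and 27.6% and 23.0% with cancer without and with exercise. Nppa, the atrial natriuretic peptide, had log2 levels of 13.64, 13.80, 12.78 and 14.20. Its log2 fold change with exercise was 0.15 (0.12 to 0.19) in healthy and 1.43 (1.39 to 1.46) in cancer-bearing mice, so Nppa was not called in the healthy comparison in which Myl7 and Sln were. Sbk3, a kinase gene of heart muscle, was called higher in all 4 comparisons, at 1.28 and 2.04 with exercise and 1.22 and 1.98 with cancer. Kcna5, a potassium channel gene of atrial repolarization, was called lower with cancer, at -1.74 without and -1.62 with exercise. Nr2f1, a nuclear receptor of the COUP-TF family, was called lower in E(+)T(+) against either neighbour, at -1.42 and -1.28. Sbk2 had no read in any library.

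Genes of the ventricle and of all cardiomyocytes were called at shares near or below those of all genes given above. Of 10 ventricular genes tested none was called with exercise in healthy mice, with a median log2 fold change of 0.03. In cancer-bearing mice 2 were called higher with exercise, Irx3 at 1.31 and Kcnip2 at 1.04, with a median of 0.29 that turned to -0.29 under scaling to the library total. Both had been called lower with cancer in mice without exercise, at -1.42 and -1.55, where the median of the list was -0.59. Irx3 is a patterning factor of the conduction system and Kcnip2 a subunit of a potassium channel, and the light chains Myl2 and Myl3 were not called. Among exercised mice Irx4, a ventricular transcription factor, was called lower with cancer at -1.02. Of 13 genes used by cardiomyocytes of both chambers none was called in any comparison. Among all genes with a mean normalized read count of at least 100, 1.75% to 14.5% were called. The medians of the 13 genes lay between 0.00 and 0.24. Under scaling to the library total those in the comparisons with E(+)T(+) turned to -0.35 and -0.49. The most variable gene, Actc1, reached -0.85.

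Genes of the pacemaker and conduction tissue, most of which lies in or beside the atria, were read thinly. With exercise 2 of 10 tested were called higher in healthy mice, and 4 higher and 3 lower of 11 in cancer-bearing mice. With cancer 3 were called higher and 2 lower without exercise, and 3 lower with exercise. Shox2, a transcription factor of the sinus node, had log2 levels of 5.65, 6.50, 5.28 and 3.60, from 43, 99, 43 and 10 reads. It was thus lowest in the library where the deposited values of Myl4, Myl7 and Sln were highest. Its log2 fold change there was -2.91 (-4.14 to -2.09) against E(+)T(-). Smoc2, a matricellular protein gene, was also lowest there, at 8.84 against 9.80 to 10.33 in the other libraries. Cacna1g, a T-type calcium channel, had 13 to 47 reads and was called lower with cancer without exercise at -1.78.

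**Figure D4:**
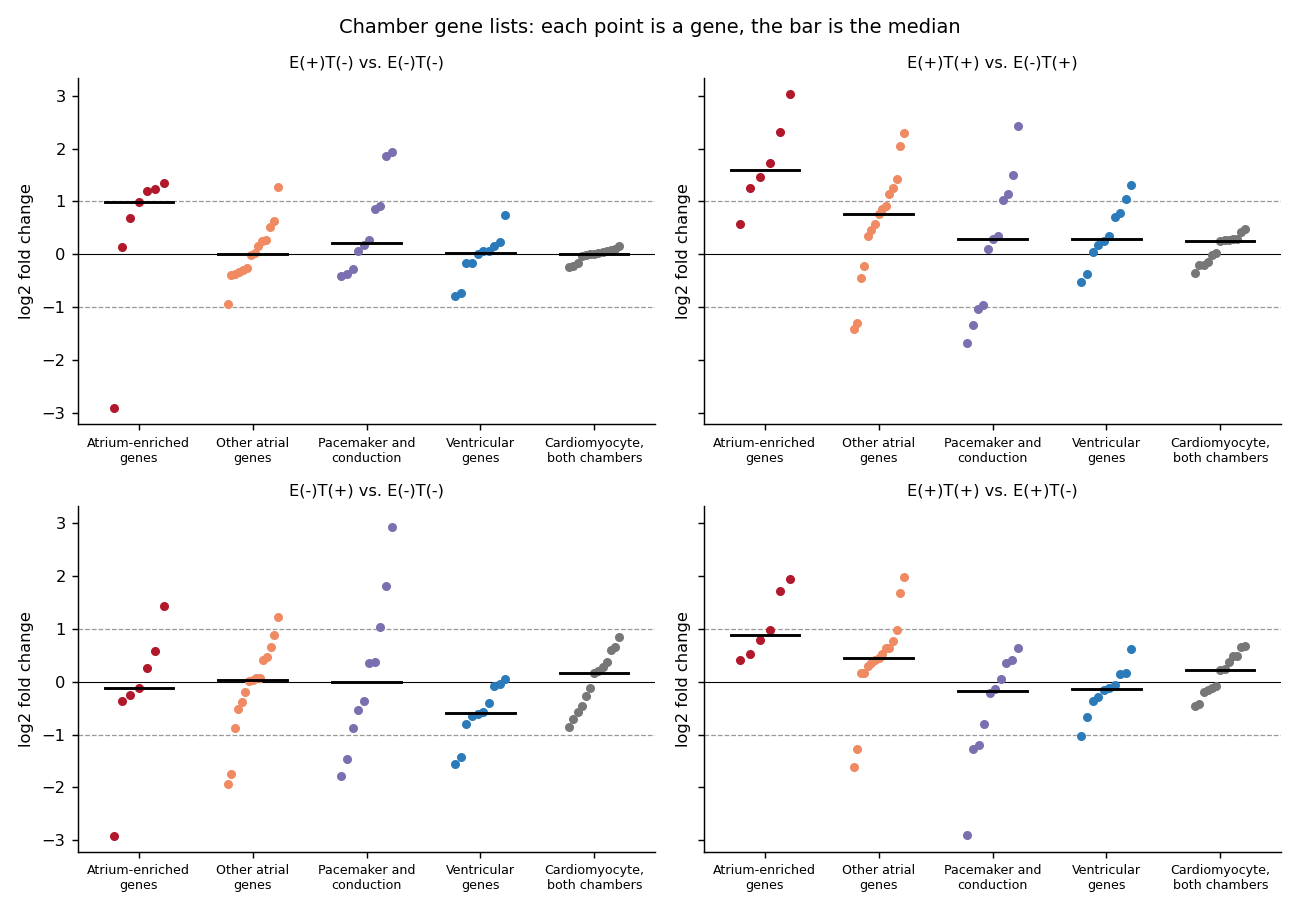
log2 fold change of single genes (points) in 5 gene lists, 1 panel per comparison, with a bar at the list median and dashed lines at a 2-fold difference, for genes that reached a normalized read count of 4 in either library. With exercise the 7 atrium-enriched genes have medians of 0.99 and 1.59, the cardiomyocyte genes of both chambers stay between the dashed lines in all panels, and the lowest point of the atrium-enriched genes is Bmp10, placed by the pseudocount where it had no read.

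The protein families of the members were followed to see whether relatives moved with them. Of 15 myosin light chain and light chain kinase genes 13 were tested. With exercise 2 were called higher and 1 lower in healthy mice (Myl7 and Myl9 higher, Mylpf of fast skeletal muscle lower), and 4 higher and 1 lower in cancer-bearing mice (Myl4, Myl7, Myl1 and Myl6b higher, Mylpf lower). Myl9, the smooth muscle light chain, was higher by 1.09 in healthy mice and by 0.44 in cancer-bearing mice. Myl1, the fast skeletal muscle essential chain, had log2 levels of 7.86, 8.11, 6.81 and 8.47 and was higher by 1.66 (1.37 to 1.98) with exercise in cancer-bearing mice. Among the calcium pump genes, Atp2a2, the cardiac pump that sarcolipin and phospholamban regulate, was not called, with log2 fold changes from 0.04 to 0.49, the latter turning to -0.22 under scaling to the library total. Mrln, a micropeptide of the same group, was higher by 1.07 and 1.03 with exercise, but from 7 to 20 reads and with intervals that include 0. Atp2a1, the fast skeletal muscle pump, had 18, 11, 30 and 33 reads. It was called lower with exercise in healthy mice, with an interval of the log2 fold change (-2.28 to 0.11) that includes 0, and higher with cancer in exercised mice at 1.77 (0.84 to 2.99).

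Bmp10 signals, as does its relative Gdf2, through the receptor Acvrl1 with Bmpr2 and endoglin (Eng) to the Smad proteins. Gdf2 had at most 2 reads in a library and was not tested for a fold. Of the 15 pathway genes tested in healthy mice 2 were called higher with exercise besides the lower call of Bmp10, and of 14 in cancer-bearing mice none was higher and 1 was lower. The inhibitory Smad6 had log2 levels of 5.25, 6.56, 6.51 and 7.36 and was called higher with exercise in healthy mice (1.31) and with cancer without exercise (1.26). Id2, a target of the pathway, was called higher with cancer in exercised mice, at 1.37 (1.24 to 1.52). Acvr2b, a type II receptor, was lowest in E(+)T(+) with 8 reads, at -1.65 against either neighbour. The receptors Acvrl1, Bmpr2 and Eng were not called in any comparison.

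Among 3 tested genes of the myosin-binding protein family Mybphl alone was called, in cancer-bearing mice, while Mybpc3 had log2 fold changes from -0.70 to 0.03 and Mybpc2 from -0.22 to 0.76. Of 5 tested Dickkopf and receptor genes, Dkk2, a secreted Wnt inhibitor, was called higher beside Dkk3 both with exercise in healthy mice and with cancer without exercise. It had 2 reads in E(-)T(-) against 19, 15 and 20 in the others. The Wnt co-receptor Lrp5 was called lower with cancer without exercise, at -1.82 (-2.49 to -1.24). Of 9 tested START domain genes, Stard10 and Pctp were called higher with exercise in cancer-bearing mice (1.26 and 1.20) and Star, which brings cholesterol to mitochondria, was called lower at -1.25. Stard10 was the member of that family called higher with cancer in exercised mice, and Stard8 was called lower at -1.36.

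Markers of other tissues that a heart sample can carry also moved between these libraries. The 13 erythroid markers, globins included, summed to normalized read counts of 664284, 646293, 662750 and 4723058, and all 13 were called higher with exercise in cancer-bearing mice (median 2.93) while none was called with exercise in healthy mice. Myl4 is also expressed in red blood cell precursors, and the part of erythroid RNA in the Myl4 level of E(+)T(+) was not tested. In the healthy comparison, where Myl4 was 1.98-fold higher, the erythroid median was 0.01. The 8 lung markers summed to 630, 167, 578 and 1899. They were lowest in E(+)T(-) and highest in E(+)T(+), with 4 of 6 tested called lower with exercise in healthy mice (median -1.56) and 5 of 8 higher in cancer-bearing mice (median 1.80). Muscle of atrial type extends along the pulmonary veins toward the lung in mice, and the part of attached vein or lung in the atrial genes was not tested.

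Fat cell markers moved more widely still, with sums of 2026, 526, 434 and 3471, all 6 tested called lower with exercise in healthy mice (median -2.16) and all 6 called higher in cancer-bearing mice (median 3.32). Ucp1, which marks brown fat, had 814 reads in E(+)T(+) and none in the other 3 libraries. Smooth muscle markers, which include genes of the great vessels, summed to 6285, 10573, 12851 and 11834. Without Des, which cardiomyocytes also express, the sums were 2846, 6984, 5293 and 4875, highest in E(+)T(-) instead of E(-)T(+). With 5 of 7 called higher with exercise in healthy mice (median 1.39) and 5 of 7 with cancer without exercise (median 1.14), they were lowest in E(-)T(-), as Dkk3 was. Whether Dkk3 and these vessel genes came from the same cells was not tested. Skeletal muscle, a source of Sln outside the heart, was low throughout, with 332 to 529 reads over 13 markers. With cancer, 5 of 9 tested were called higher in exercised mice (median 1.49), the comparison in which Sln was higher by 1.95, and 4 higher and 1 lower of 9 without exercise (median 0.76). With exercise, none was called higher and 2 lower of 6 in healthy mice (median -0.12), and 2 higher and 2 lower of 10 in cancer-bearing mice (median 0.19, turning to -0.37 under scaling to the library total). The part of skeletal muscle RNA in the Sln level was not tested. Endocardial markers summed to 1039, 917, 1205 and 1668 and epicardial and mesothelial markers to 400, 367, 591 and 437. At most 3 genes of either list were called in 1 direction. Of 6 endocardial markers 3 were called higher with cancer in exercised mice (median 0.99, or 0.27 under scaling to the library total). Of 9 epicardial and mesothelial markers 3 were called lower with exercise in cancer-bearing mice (median -0.67).

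**Figure D5:**
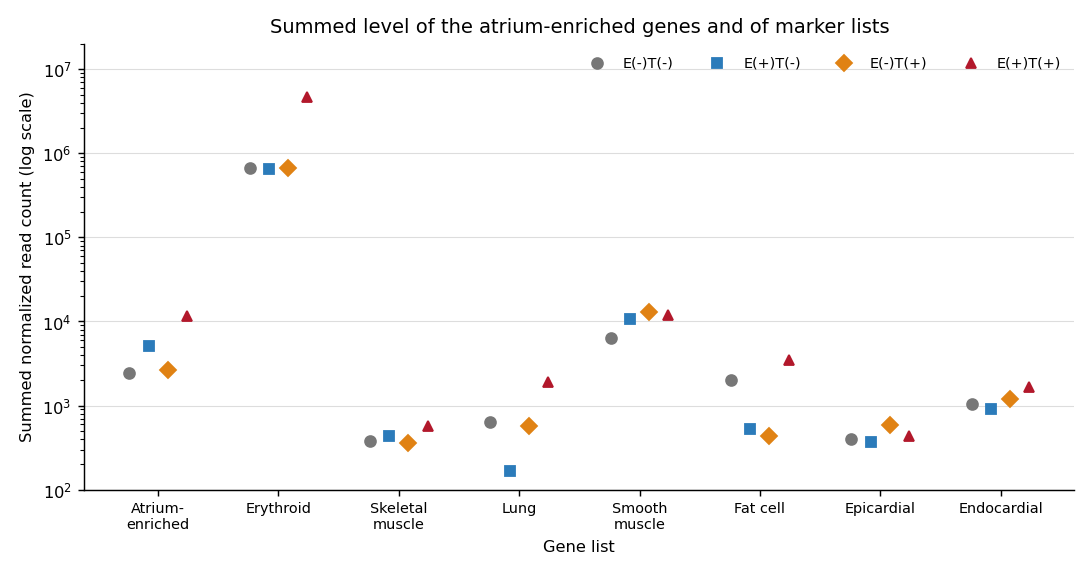
Summed normalized read count, on a log scale, of the 7 atrium-enriched genes and of 7 marker lists in each of the 4 libraries, 1 point per library with no error bar because each group had 1 library. The atrium-enriched genes go from 2420 in E(-)T(-) to 11588 in E(+)T(+). The erythroid, skeletal muscle, lung, fat cell and endocardial sums are highest there too. E(+)T(-) has 5134 for the atrium-enriched genes and the lowest lung sum.

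The genes whose pattern over the 4 libraries was nearest to the mean pattern of the 7 were sought among 11633 genes with a mean normalized read count of at least 16. Likeness was the Euclidean distance between log2 levels centred on each gene's own mean. The nearest were Rel (0.222), Slc25a39 (0.234), Ramp3 (0.284) and Hey1 (0.288). Hey1, a Notch target of the atrial list, had log2 levels of 6.55, 7.08, 6.60 and 7.86. The others are a subunit of NF-kappa B, a mitochondrial carrier and a receptor accessory protein. The list depended on Bmp10, since without it the 5 nearest included 8430419L09Rik, Arv1, Peg3 and 3632451O06Rik and none of those 4. Mybphl was the nearest of the members to the mean pattern of all 7, with 18 genes nearer, and Bmp10 the farthest. Without Bmp10 in the mean, Myl4 (14 genes nearer) and Myl7 (17) were nearer than Mybphl (24). With 4 libraries many genes lie this near by their number alone, and the distances are given as a description.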

How the data were processed

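Hearts of 4 groups of mice were measured with 1 QuantSeq library per group. According to the labels and methods, the authors aligned reads with Bowtie2 to mm10, counted them with Bedtools and normalized counts by quantiles with edgeR in R, and deposited log2 values of the normalized read count + 1. Tool versions are not given in the sources used here. The quantile adjustment inverted below brings counts to a common library size and does not make the distributions of the libraries equal. Erythroid markers, for example, still summed to 4723058 in E(+)T(+) and to at most 664284 in the other libraries. Differences are therefore relative to the fitted library sizes.

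Here, whole reads were recovered by inverting a quantile adjustment with a fitted dispersion of 0.149, written in Python 3.11.15 with numpy 2.4.6, scipy 1.17.1 and pandas 2.3.3. The largest difference between a deposited and a regenerated value was 0.000516. On simulated counts of 17166 genes for E(+)T(-) against E(-)T(-), 97.7% of read numbers came back exactly, 100% of those under 1000 reads, and 200 of 200 genes changed 4-fold were called in the right direction. The changed genes were drawn from those above a minimum mean read number, and the simulated counts carried counting error only. The simulation therefore does not cover calls of genes with few reads, changes near 2-fold or differences between mice. Depth was 6595445 to 11545947 reads. Reads copied by PCR are not independent molecules, so the 95% Clopper-Pearson intervals and the floor of 3 reads cover counting error only. No test between groups was made, because each group had 1 library.

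Each file held 23282 rows and 23238 symbols, and the row with the highest mean was kept for the 35 symbols with more than 1 row. Samples were grouped by their titles. Besides the members, the named genes were for each list the 4 largest changes of genes averaging 16 or more normalized reads, the partners Myl2, Myl3, Pln, Mybpc3 and Gdf2, and the 5 nearest patterns, of which some are not reported here. Other genes named, among them all genes of small counts of calls, were chosen after their values were seen. The members and lists were chosen with earlier results of these data known. Strit1, Stard9, Ahsp, Epb42 and Muc16 were not analysed here. Alternatives covered scaling, the count minimum, the pseudocount, repeated symbols and the partner of a ratio. Loci came from the GENCODE annotation of GRCm38 and promoters from RefSeq, and figures were drawn with matplotlib 3.10.9.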

Additional observations from a re-analysis of the deposited data

Results flagged for a closer look

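Values of opposite sign in the 2 backgrounds are listed here, and their difference was not tested because each group had 1 library. With exercise, Bmp10 had a log2 difference of -2.92 in healthy and 1.09 in cancer-bearing mice, both set by the pseudocount and by 0 to 6 reads. The median log2 fold change of lung markers with exercise was -1.56 in healthy and 1.80 in cancer-bearing mice, and that of fat cell markers -2.16 and 3.32. With cancer, Myl4 had a log2 fold change of -0.36 without and 0.98 with exercise, Myl7 of -0.12 and 0.41, and Mybphl of -0.25 and 0.52. Without exercise the counting intervals of Myl7 (-0.27 to 0.04) and Mybphl (-0.76 to 0.26) include 0, so their direction there is open. Scaling to the library total turned the values with exercise to -0.31 for Myl7 and -0.20 for Mybphl. Bmp10 again had -2.92 and 1.09 with cancer, and fat cell markers had medians of -3.51 without and 2.45 with exercise.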

How the results depend on the processing

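No paired analysis was possible because each group had 1 library and the labels give no replicate numbers, and no replicate could be left out. Over 28 member changes (7 genes, 4 comparisons), calls were on the same side of the threshold in 28 with scaling to the library total without globin genes, with a pseudocount of 4 and with rows of a symbol summed. Scaling to the library total lost 2 calls (Mybphl and Stard10 with exercise in cancer-bearing mice), leaving 3 there with a median of 1.01. Scaling to summed cardiomyocyte genes gained 1 call (Myl4 in healthy mice, 1.01). No count minimum gained 2, and a minimum of 16 or a minimum in both libraries lost 2, all of Bmp10. Requiring both libraries lowered the calls over all genes from 1711, 2788, 3953 and 3288 to 829, 1627, 2585 and 1986 (exercise in healthy and cancer-bearing mice, cancer without and with exercise). No call changed direction. With cancer without exercise the median of the members was -0.27 under the library total, -0.28 without globin genes, and 0.08 with 1 call under a minimum of 16, without Bmp10, or with the minimum required of both libraries, the last 2 chosen after seeing the data. With cancer in exercised mice it was 0.17 under the library total, 0.71 without globin genes and 0.70 under cardiomyocyte scaling. With Actc1 as the partner, Myl7 had 18.2, 39.5, 30.3 and 72.2 reads and Myl4 18.0, 33.6, 25.2 and 91.2 reads per 1000 in E(-)T(-), E(+)T(-), E(-)T(+) and E(+)T(+). The order of exercised over unexercised hearts held for both genes with either partner, but Myl4 in E(-)T(+) against E(-)T(-) was 1.40-fold with Actc1 and 0.805-fold with Myl3. With 1 library a group, variation between mice is unknown, Bmp10 is at the limit of depth, and chamber share, attached tissue and RNA per cell cannot be told apart.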
